A study of Mus musculus with 16 samples.

Results

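Hepatic stellate cells were followed through 10 genes that mark them in liver, Reln, Ecm1, Colec11, Rgs5, Ngfr, Hand2, Lhx2, Tcf21, Bmp5 and Pdgfra. They were picked by gene symbol from a liver RNA-seq table of 23420 genes, and each symbol was found. The rule used no measured values, but the set was chosen with earlier results of these data known. RNA was sequenced from the livers of 16 male C57BL/6J wild-type mice in 4 groups of 4. All mice ate a 45% high-fat diet (HFD), and in 2 groups it held 0.04% fenretinide, a synthetic retinoid (FEN-HFD). The groups were FEN-HFD for 20 weeks (mice 21, 22, 24 and 29), HFD for 20 weeks (mice 25, 28, 33 and 45), FEN-HFD for 7 days (mice 61, 62, 65 and 66) and HFD for 7 days (mice 142, 143, 144 and 146). The mice of the 2 durations were different animals, and duration, age and cohort cannot be told apart here. The age of the mice and lean livers were not analysed here.

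Stellate cells lie in the space between hepatocytes and the sinusoidal endothelium, where in a healthy liver they are quiescent and store vitamin A as retinyl esters. On injury they can activate, lose their vitamin A, turn contractile and make fibrillar collagen. They hold most of the retinoid store of the liver, and fenretinide is itself a retinoid. Whole liver was sequenced, so that fewer stellate cells and less RNA per stellate cell cannot be told apart.

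Among the secreted products in the set, reelin (Reln) is a large glycoprotein that binds the receptors Vldlr and Lrp8. Reln lies on chromosome 5 from 21884454 to 22344702, minus strand, in the mm10 (GRCm38) build. Ecm1, a secreted matrix protein on chromosome 3 from 95734147 to 95739569, minus strand, is known in mouse liver for holding latent TGF-beta inactive. The promoters of both are shown because these were the markers with the smallest unadjusted p for fenretinide at 20 weeks. The windows, chr5:22344656-22344955 and chr3:95739520-95739819, both minus strand, are RefSeq sequences of GRCm38.p6 written in the direction of transcription. Each holds 300 bases around the start of transcription. Capitals mark the letters CANNTG on either strand, the E-box, which is the kind of site that Hand2 and Tcf21 proteins bind. They also mark GGGCGG on either strand, known as the GC box, which Sp1 binds. The last motif in capitals is TATAAA, a core promoter element near many starts of transcription. Matches of different motifs did not overlap in either window.
Reln: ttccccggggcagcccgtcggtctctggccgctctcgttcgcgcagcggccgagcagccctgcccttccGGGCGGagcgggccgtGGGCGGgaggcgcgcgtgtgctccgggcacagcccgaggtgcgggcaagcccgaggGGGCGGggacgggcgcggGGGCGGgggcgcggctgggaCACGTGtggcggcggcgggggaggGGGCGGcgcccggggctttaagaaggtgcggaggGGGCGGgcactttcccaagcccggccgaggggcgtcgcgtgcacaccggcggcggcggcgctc
Ecm1: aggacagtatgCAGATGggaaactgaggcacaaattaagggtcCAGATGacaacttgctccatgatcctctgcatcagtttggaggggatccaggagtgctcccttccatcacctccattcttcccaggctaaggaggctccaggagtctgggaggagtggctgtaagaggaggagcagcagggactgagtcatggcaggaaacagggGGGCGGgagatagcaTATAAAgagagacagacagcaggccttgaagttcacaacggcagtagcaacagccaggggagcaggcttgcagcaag

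The Reln window was 80.7% G and C, with 6 GC boxes, 1 E-box (CACGTG, which reads the same on both strands) at position -71 and no TATAAA. The Ecm1 window was 54.7% G and C, with TATAAA at -27, a GC box at -42 and 2 E-boxes. RefSeq gave 11 windows for the 10 markers, with 2 starts for Lhx2. TATAAA was in 1 of the 11, against 13.6% of 32851 mouse promoter windows of this length, and GGGCGG was in 5, against 35.7%. CANNTG was in 8 of the 11 windows, against 72.3%. AGGTCA, the half-site that retinoic acid receptors bind, was in 0 of the 11, against 16.3% of all windows. These are matches of letters in short windows, and binding was not measured.

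Each library held between 19218230 and 32546829 counts assigned to genes. Levels are given as CPM, counts normalised to library size after scaling the 16 libraries together with TMM factors, and the plotted levels are on this scale. FEN-HFD mouse 29 of the 20-week group stood apart, since the ribosomal precursor Rn45s took 53.1% of its counts, against 0.466% to 1.46% in the other 15 libraries. All 10 markers had counts in all 16 livers, from a lowest of 25 reads for Lhx2 to a highest of 7643 for Reln. Summed over the 10, they reached between 275 and 421 CPM per liver, beside 69765 to 100023 CPM for 8 hepatocyte markers.

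Divided by exon length, so that genes can be set beside each other, Colec11 was the most abundant marker, at 32.7 ± 5.02 CPM per kb (SD, all 16 livers). Ecm1 followed at 19.3 ± 3.73 CPM per kb and Reln at 16.6 ± 2.77 CPM per kb, and neighbouring ranges overlapped among these 3. The step to Rgs5, at 4.83 ± 0.759 CPM per kb, was larger than the spread, since the lowest Reln value (12.6) lay above the highest Rgs5 value (6.30). The lowest Rgs5 value (3.93) was also above the highest Bmp5 value (3.77 CPM per kb). Below Bmp5, at 3.07 ± 0.357 CPM per kb, came Pdgfra (1.84 ± 0.425), Hand2 (1.71 ± 0.256), Tcf21 (1.48 ± 0.295), Ngfr (1.38 ± 0.614) and Lhx2 (0.514 ± 0.108), and each overlapped the next. Without division by length the longest transcript, Reln, led with a mean of 194 CPM. Ngfr varied most from liver to liver, with an SD of 44.4% of its mean, and Bmp5 least, at 11.6%. Some marker exons overlap annotated antisense genes, over 49.1% of exon bases for Bmp5 (Gm26903) and 19.6% for Hand2 (Hand2os1). The strand setting of the counting is not known, so that antisense reads could be among the counts of these genes.

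**Figure D1:**
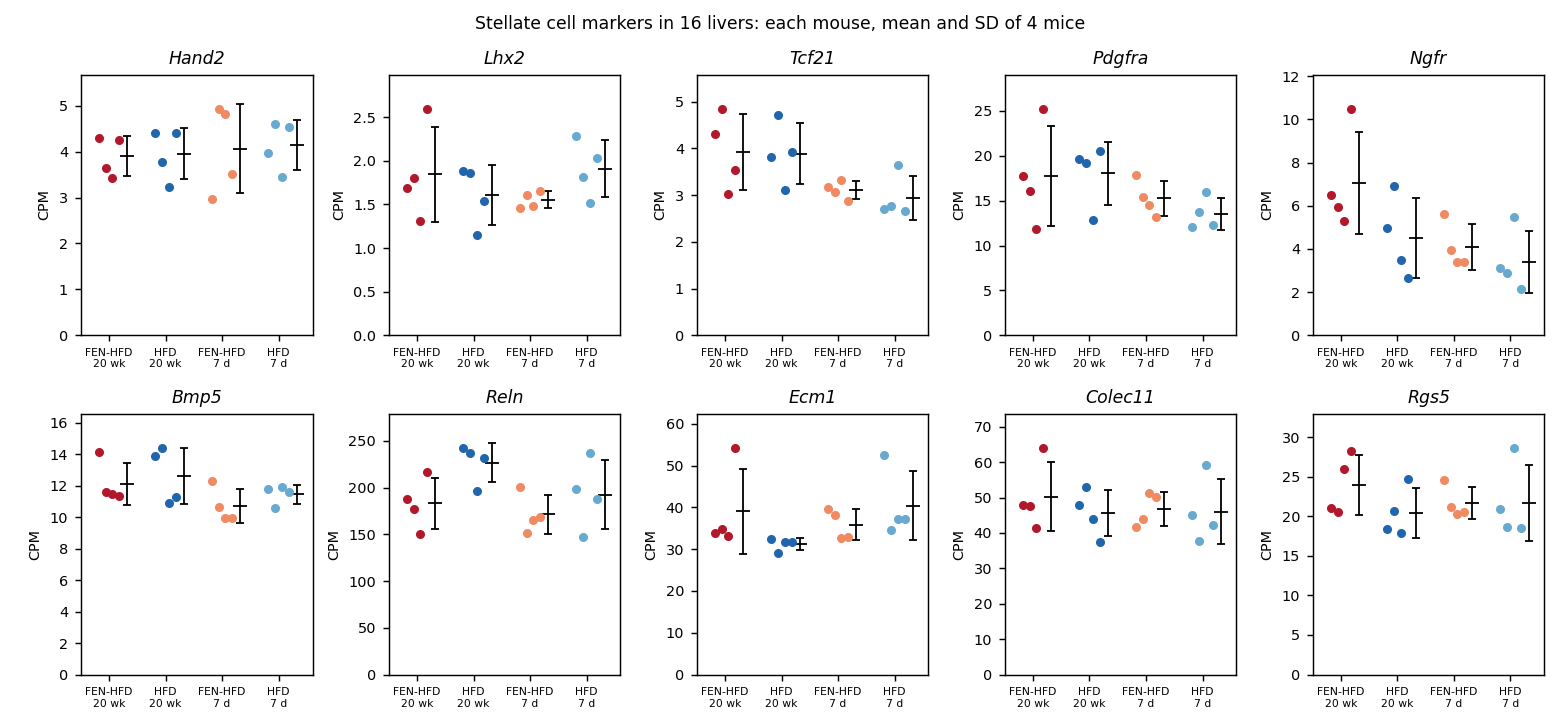
CPM of each of the 10 stellate cell markers (vertical axes, from 0) in the 4 groups of 4 mice, 1 point per mouse, with the mean and SD beside the points. Most groups overlap, Ecm1 is higher in each FEN-HFD liver than in any HFD liver at 20 weeks, and FEN-HFD mouse 29 gives the highest Ngfr point (10.5 CPM).

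The first question was whether 20 weeks of fenretinide changed these markers in livers of mice on the HFD. It did not to the point of passing the test: 0 of 10 markers were called higher and 0 lower by edgeR at an adjusted p under 0.05, where 0.769% and 1.09% of all 13010 genes tested were called. DESeq2 and limma-voom also called 0. At an unadjusted p under 0.05 there were 0 higher and 1 lower (Reln), against 8.5% and 10% of all genes. The median log2 fold change of the 10 was 0.08, against 0.01 over all genes. For 9 of the 10 the 95% interval of the fold change stayed within 2-fold either way, and the exception was Ngfr. Without FEN-HFD mouse 29 the counts were again 0 and 0.

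Reln had 188, 177, 151 and 217 CPM in FEN-HFD mice 21, 22, 24 and 29, against 243, 237, 196 and 232 CPM in HFD mice 25, 28, 33 and 45. FEN-HFD mouse 29 lay above HFD mouse 33, and the other FEN-HFD livers lay below each HFD liver. The log2 fold change was -0.31 (SE 0.13, 95% interval -0.59 to -0.02), with an adjusted p of 0.239. Without mouse 29 it was -0.39 with an adjusted p of 0.0861. Over the alternatives the adjusted p ranged from 0.0562 to 0.434, and the fold change kept its sign.

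Ecm1 had 33.9, 34.9, 33.1 and 54.3 CPM in the FEN-HFD livers of mice 21, 22, 24 and 29, against 32.6, 29.2, 31.8 and 31.8 CPM in the HFD livers of mice 25, 28, 33 and 45. The groups did not overlap, but 3 of the FEN-HFD livers were within 3 CPM of the highest HFD liver and mouse 29 lay far above. Ecm1 was the 1 marker whose groups did not overlap at 20 weeks, where 6% of all genes were higher and 6.8% lower without overlap. Its log2 fold change was 0.31 (SE 0.15), with an adjusted p of 0.320, and 0.12 without mouse 29 (adjusted p = 0.373).

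Colec11 encodes collectin-11, a soluble lectin that starts the lectin pathway of complement. It averaged 50.2 ± 9.69 CPM in FEN-HFD livers and 45.6 ± 6.51 CPM in HFD livers (SD, n = 4 each), a log2 fold change of 0.13 (SE 0.15). The BMP ligand Bmp5 averaged 12.1 ± 1.34 CPM in FEN-HFD livers and 12.6 ± 1.79 CPM in HFD livers, a log2 fold change of -0.05 (95% interval -0.34 to 0.23). That interval lay well within a 2-fold change in either direction.

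Of the surface receptors, Ngfr (p75NTR, the low-affinity neurotrophin receptor, on chromosome 11 from 95568818 to 95587735) had the largest fold change of the 10. It had 6.51, 5.95, 5.27 and 10.5 CPM in FEN-HFD mice 21, 22, 24 and 29, against 4.98, 6.91, 3.47 and 2.67 CPM in HFD mice 25, 28, 33 and 45. HFD mouse 28 lay inside the FEN-HFD range and the other HFD livers below it. The log2 fold change was 0.62 (SE 0.32, 95% interval -0.09 to 1.33), with an adjusted p of 0.329. Leaving out mouse 29 gave 0.39 (adjusted p = 0.459). Pdgfra, a receptor tyrosine kinase for PDGF ligands, averaged 17.7 ± 5.6 CPM in FEN-HFD livers and 18 ± 3.52 CPM in HFD livers (log2 fold change -0.04, adjusted p = 0.946). Both groups had a wide spread, since FEN-HFD livers ran from 11.9 to 25.3 CPM and HFD livers from 12.8 to 20.5 CPM.

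Rgs5 speeds up the switching off of G protein signals and also marks pericytes. It averaged 24.0 ± 3.79 CPM in FEN-HFD livers and 20.4 ± 3.10 CPM in HFD livers (log2 fold change 0.22, adjusted p = 0.422). Of the transcription factors, Hand2 and Tcf21 are basic helix-loop-helix proteins, and Lhx2 is a LIM homeodomain protein whose loss in mice leads to liver fibrosis. Hand2 averaged 3.90 ± 0.446 CPM in FEN-HFD livers and 3.96 ± 0.564 CPM in HFD livers. Tcf21 averaged 3.93 ± 0.813 CPM in FEN-HFD livers and 3.89 ± 0.657 CPM in HFD livers. Lhx2 averaged 1.85 ± 0.544 CPM in FEN-HFD livers and 1.61 ± 0.347 CPM in HFD livers. Their log2 fold changes were -0.02, 0.02 and 0.17, with adjusted p from 0.777 to 0.965.

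**Figure D2:**
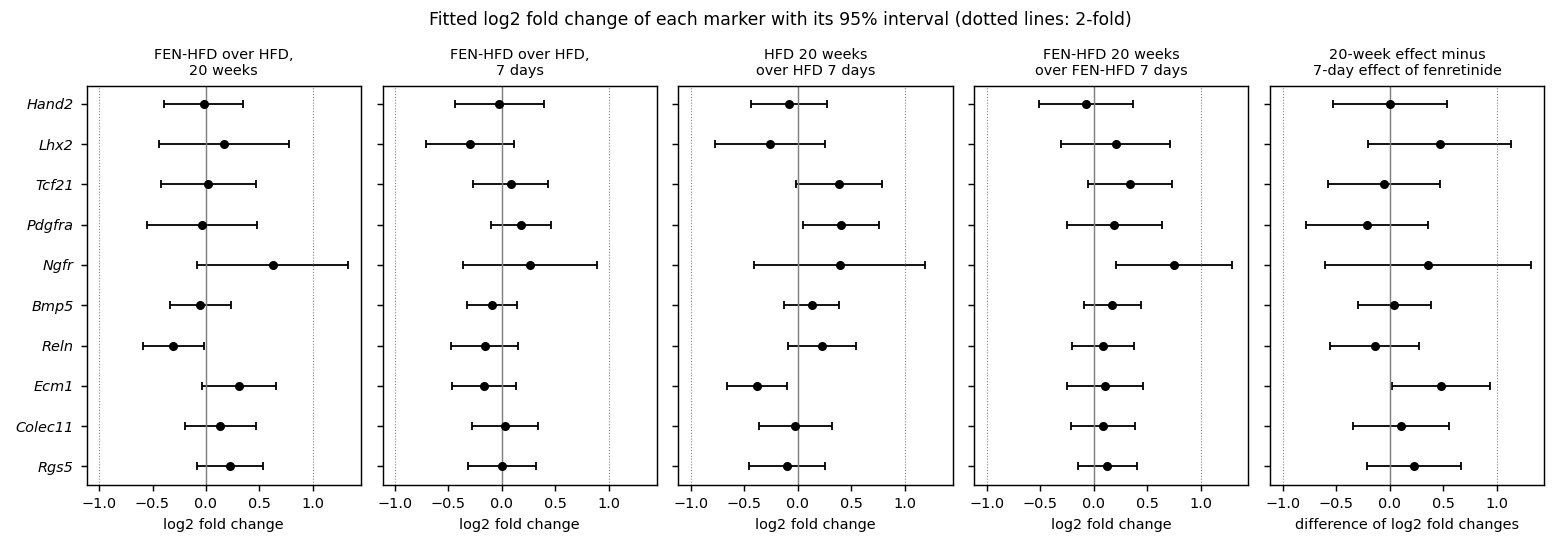
Fitted log2 fold change (horizontal axes) of each marker in the 4 comparisons between groups, and the contrast of its 20-week with its 7-day values, with 95% intervals and dotted lines at 2-fold. Intervals reach past 2-fold for Ngfr in 4 of the 5 panels and for Lhx2 in the last.

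Markers of other cells were read beside these values. Kupffer cell and macrophage markers summed to between 425 and 992 CPM in FEN-HFD livers, highest in mouse 29, and between 338 and 405 CPM in HFD livers at 20 weeks. B cell markers summed to 2.31 to 28.4 CPM in FEN-HFD livers, again highest in mouse 29, and 2.06 to 4.49 CPM in HFD livers. Mouse 29 was also the highest FEN-HFD liver for 7 of the 10 stellate markers. Portal fibroblast genes summed to 10.2 to 19.4 CPM in FEN-HFD livers and 18.4 to 64.8 CPM in HFD livers, and 0 of 11 were at 0 in all 4 livers of either group. The part of these shifts in the marker values was not tested beyond leaving out mouse 29.

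Other genes of these cells were read in the same fits. Of 26 further genes known from stellate cells, 2 rose, among them Lrat, and 1 fell with fenretinide at 20 weeks. Lrat, the enzyme that makes retinyl esters, averaged 82.9 ± 5.63 CPM in FEN-HFD livers and 49.3 ± 10.6 CPM in HFD livers (log2 fold change 0.75, adjusted p = 0.0357). Adamtsl2, a secreted microfibril-associated protein, averaged 4.82 ± 1.36 CPM in FEN-HFD livers and 14.4 ± 4.06 CPM in HFD livers (-1.61, adjusted p = 0.0145). Both calls were lost in some fits with 1 mouse fewer. Dropping FEN-HFD mouse 21 (adjusted p of 0.0699) or 24 (0.0535) ended the call of Adamtsl2. Dropping FEN-HFD mouse 21 (adjusted p of 0.0889), 22 (0.0889), 24 (0.0763), HFD mouse 25 (0.0687) or HFD mouse 33 (0.0802) ended that of Lrat. With any 1 mouse left out, the log2 fold change ran from 0.64 to 0.84 for Lrat and from -1.78 to -1.41 for Adamtsl2.

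Genes of activated stellate cells and myofibroblasts, such as the fibrillar collagen Col1a1 and the metalloproteinase inhibitor Timp2, were set apart as a list of 24, of which 21 were tested. By edgeR 0 of the 21 were called at 20 weeks. At an unadjusted p under 0.05, 0 were higher and 11 lower, against 8.5% and 10% of all genes. Their median log2 fold change was -0.82, against 0.01 over all genes. DESeq2 called 7 lower and limma-voom 11. Without FEN-HFD mouse 29 or without HFD mouse 33, edgeR called 3 lower. The sum of the list was 224 to 505 CPM in FEN-HFD livers (median 243) and 284 to 674 CPM in HFD livers. The groups overlapped only through FEN-HFD mouse 29, which had the 505 CPM, and the other FEN-HFD livers lay below each HFD liver.

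Ligands, receptors and targets in the pathways of the markers were read next. The reelin receptor Vldlr averaged 3.46 ± 1.72 CPM in FEN-HFD livers and 10.1 ± 3.49 CPM in HFD livers, a log2 fold change of -1.60 with an adjusted p of 0.0595. It was 1 of 4 reelin pathway genes tested, of which edgeR called 0 and DESeq2 and limma-voom 1 each. Its adjusted p was 0.0177 with FEN-HFD mouse 29 left out and 0.0360 with HFD mouse 33 left out, both past the threshold. Of 5 PDGF ligands and receptors, edgeR and DESeq2 called 0 and limma-voom 1, with 2 lower at an unadjusted p under 0.05, Pdgfa (log2 fold change -0.68) and Pdgfrb (-0.50). Of 8 neurotrophin pathway genes edgeR called 0, with 1 higher and 1 lower at an unadjusted p under 0.05. DESeq2 and limma-voom each called 1 in each direction. These were the sorting receptor Sort1, which pairs with p75NTR (log2 fold change 0.67, adjusted p = 0.0568), and the BDNF receptor Ntrk2 (-2.14, adjusted p = 0.0842).

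Of 20 BMP signalling genes 2 fell at 20 weeks by edgeR, both of them transcriptional targets of BMP signals. DESeq2 called 0 of the list higher and 4 lower, and limma-voom 1 higher and 4 lower. Id1 averaged 3.96 ± 0.589 CPM in FEN-HFD livers and 7.26 ± 0.447 CPM in HFD livers (log2 fold change -0.88, adjusted p = 0.0184). Id3 averaged 21.5 ± 3.24 CPM in FEN-HFD livers and 37.2 ± 5.99 CPM in HFD livers (-0.80, adjusted p = 0.0263). Dropping FEN-HFD mouse 21 (adjusted p of 0.0807), 24 (0.0535) or HFD mouse 25 (0.0718) ended the call of Id1, as did all 16 libraries in 1 fit (0.136). Dropping FEN-HFD mouse 21 (adjusted p of 0.0948), 22 (0.0737), 24 (0.0535), HFD mouse 25 (0.0611) or HFD mouse 33 (0.0620) ended that of Id3. Of 6 lectin pathway genes DESeq2 called 3 higher and 1 lower at 20 weeks, and limma-voom 2 higher and 1 lower. By edgeR 1 rose, the ficolin Fcna, with 112 ± 13.6 CPM in FEN-HFD livers and 47.6 ± 16.1 CPM in HFD livers (1.24, adjusted p = 0.0305). Dropping FEN-HFD mouse 21 (adjusted p of 0.0959), 22 (0.0756), 24 (0.0818) or HFD mouse 25 (0.105) ended this call.

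The second question was whether 7 days of fenretinide changed the markers. By edgeR 0 of 10 were called in either direction, where 0.0988% of 13157 genes were higher and 0% lower. DESeq2 and limma-voom called 0, and 0 had an unadjusted p under 0.05, against 2.63% of all genes higher and 2.45% lower. The log2 fold changes ran from -0.30 for Lhx2 to 0.26 for Ngfr around a median of -0.01, equal to that of all genes. All 10 of the 95% intervals stayed within 2-fold. Groups of 0 markers were free of overlap, where 1.69% of all genes were higher and 1.5% lower without overlap.

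Lhx2 had 1.46, 1.61, 1.49 and 1.66 CPM in FEN-HFD mice 61, 62, 65 and 66, against 2.29, 1.81, 1.52 and 2.03 CPM in HFD mice 142, 143, 144 and 146. The HFD livers lay above the FEN-HFD livers apart from mouse 144, which fell inside the FEN-HFD range. The log2 fold change was -0.30 (SE 0.19, unadjusted p = 0.143). Ecm1 averaged 35.9 ± 3.62 CPM in FEN-HFD livers and 40.4 ± 8.16 CPM in HFD livers at 7 days (log2 fold change -0.17), and Reln 172 ± 20.8 CPM in FEN-HFD livers and 193 ± 36.9 CPM in HFD livers (-0.16). Ngfr averaged 4.08 ± 1.06 CPM in FEN-HFD livers and 3.41 ± 1.44 CPM in HFD livers (0.26). HFD mouse 144 was the highest of its group for 7 of the 10 markers. Without it the log2 fold change of Ngfr was 0.59 (adjusted p = 0.855), and without FEN-HFD mouse 61 it was 0.07.

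Among the other stellate cell genes 1 of 25 rose at 7 days. Lrat averaged 79.2 ± 9.0 CPM in FEN-HFD livers and 42.1 ± 2.10 CPM in HFD livers, a log2 fold change of 0.92 (SE 0.09, adjusted p = 0.00334), and it passed the test under every alternative run. Of 22 activated stellate cell genes edgeR, DESeq2 and limma-voom called 0, with 2 higher at an unadjusted p under 0.05 and a median of 0.0, the same as over all genes to 1 decimal.

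**Figure D3:**
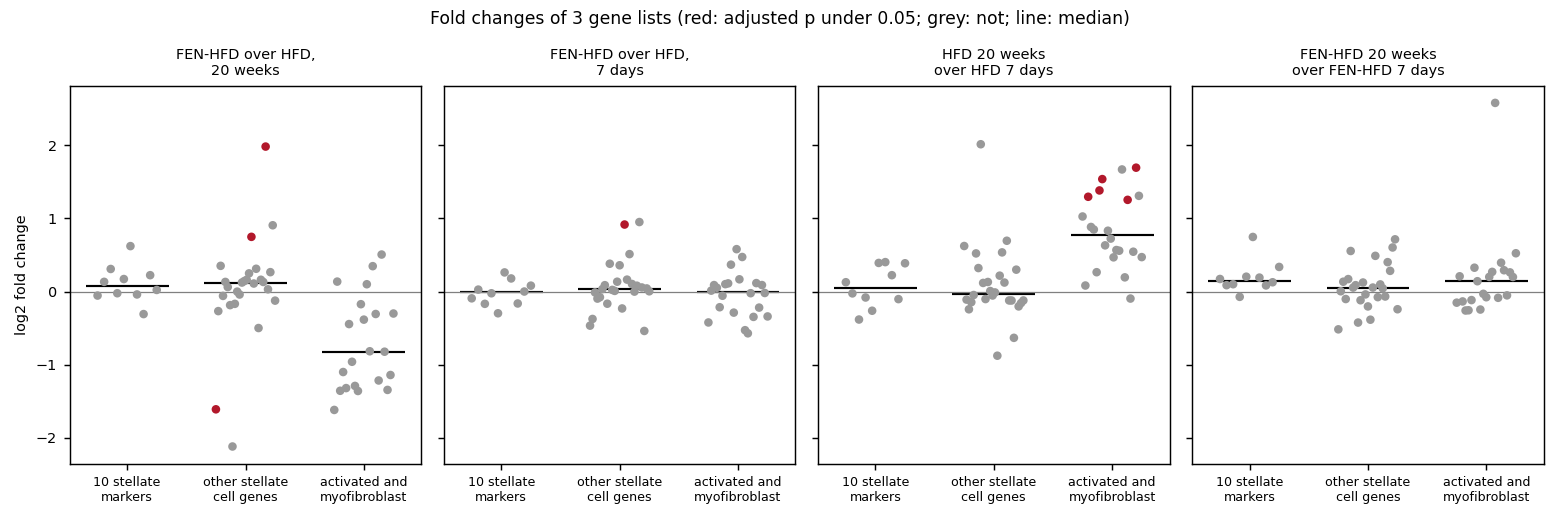
Log2 fold changes (vertical axis) of the 10 markers, the other stellate cell genes and the activated stellate cell and myofibroblast genes in the 4 comparisons, 1 point per gene, red where edgeR's adjusted p is under 0.05, with the median as a line. The medians of the 10 markers lie between -0.01 and 0.15, with single markers up to 0.75 (Ngfr, 20 weeks over 7 days on FEN-HFD), and the activated list has medians of -0.82 for fenretinide at 20 weeks and 0.78 for HFD at 20 weeks over 7 days.

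The third question was how the markers differed between 20 weeks and 7 days on the HFD. By edgeR 0 of 10 were called, where 4.78% of 13255 genes were higher and 2.73% lower, and DESeq2 and limma-voom called 0. At an unadjusted p under 0.05, 1 marker was higher (Pdgfra) and 1 lower (Ecm1), against 13.3% and 12.2% of all genes. The median of the 10 was 0.05, against -0.01 over all genes.

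Ecm1 had 32.6, 29.2, 31.8 and 31.8 CPM in HFD mice 25, 28, 33 and 45 at 20 weeks, against 52.5, 34.7, 37.2 and 37.3 CPM in HFD mice 142, 143, 144 and 146 at 7 days. The groups did not overlap, and the 20-week livers were nearly alike. Ecm1 was the 1 marker lower without overlap, as were 7.33% of all genes, with 9.63% higher. Its log2 fold change was -0.38 (SE 0.12, 95% interval -0.66 to -0.11), with an adjusted p of 0.0941, which ranged from 0.0579 to 0.199 over the alternatives.

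Pdgfra, on chromosome 5 from 75152292 to 75198215, had 19.6, 19.2, 12.8 and 20.5 CPM in HFD mice 25, 28, 33 and 45 at 20 weeks, against 12, 13.7, 15.9 and 12.3 CPM in HFD mice 142, 143, 144 and 146 at 7 days. Mouse 33 fell among the 7-day livers, and the other 20-week livers lay above each of them. The log2 fold change was 0.40 (SE 0.16, 95% interval 0.05 to 0.76), with an adjusted p of 0.151. Without mouse 33 it was 0.54 and passed the test (adjusted p = 0.0320). Mouse 33 was the lowest of its group for 7 of the 10 markers. Pdgfrb, the other PDGF receptor gene, averaged 16.9 ± 3.70 CPM at 20 weeks and 10.3 ± 2.79 CPM at 7 days (log2 fold change 0.70, adjusted p = 0.0883). It passed without HFD mouse 33 (adjusted p = 0.0444) or HFD mouse 144 (0.0453).

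Tcf21 had 3.81, 4.71, 3.11 and 3.92 CPM in HFD mice 25, 28, 33 and 45 at 20 weeks, against 2.69, 2.77, 3.64 and 2.67 CPM in HFD mice 142, 143, 144 and 146 at 7 days. Mouse 144 lay within the 20-week range and the other 7-day livers below it. On the log2 scale the fold change was 0.39 (SE 0.18, adjusted p = 0.212). Reln averaged 227 ± 21.0 CPM at 20 weeks and 193 ± 36.9 CPM at 7 days (0.22, adjusted p = 0.345). Ngfr averaged 4.51 ± 1.87 CPM at 20 weeks and 3.41 ± 1.44 CPM at 7 days (0.39, adjusted p = 0.518), with a 95% interval that reached a 2.28-fold rise. For the other 9 markers the interval stayed within 2-fold.

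Several partners of the markers changed between these HFD groups. Vldlr averaged 10.1 ± 3.49 CPM at 20 weeks and 2.33 ± 0.610 CPM at 7 days (log2 fold change 2.10, adjusted p = 0.00619), and it was 1 of 4 reelin pathway genes tested to be called. Of 8 neurotrophin pathway genes 2 rose, among them Ntrk2, and 1 fell. Ntrk2 averaged 15.7 ± 8.32 CPM at 20 weeks and 2.23 ± 0.758 CPM at 7 days (2.79, adjusted p = 0.0106), and Sort1 averaged 17.2 ± 2.68 CPM at 20 weeks and 47.7 ± 9.73 CPM at 7 days (-1.49, adjusted p = 0.00148). Vldlr, Ntrk2 and Sort1 passed under every alternative run. Which cells of the liver carried these transcripts was not measured.

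Of 22 activated stellate cell genes 5 rose at 20 weeks, with a median of 0.78 against -0.01 over all genes. They were the growth factor gene Ctgf, the collagen Col1a1, the matrix genes Tnc and Fbln2, and the contractile gene Tagln. Ctgf averaged 7.92 ± 1.37 CPM at 20 weeks and 3.0 ± 0.994 CPM at 7 days (log2 fold change 1.38, adjusted p = 0.00860), and it passed with each mouse left out. The count was 1 without HFD mouse 25, 28, 142 or 146, 2 without mouse 144, 3 without mouse 45 or 143 and 8 without mouse 33. Of the other stellate cell genes edgeR called 0 of 26, with 3 higher and 1 lower at an unadjusted p under 0.05, where 2 were called higher and 1 lower by DESeq2, and 1 lower by limma-voom. Adipocyte markers summed to 31.1 to 138 CPM at 20 weeks and 1.08 to 3.42 CPM at 7 days. Of these 4 markers only 1, Cidec, had enough counts to be tested (log2 fold change 5.29, adjusted p = 0.00768 by edgeR). The sum therefore cannot be read as an amount of adipocytes. Kupffer cell markers summed to 338 to 405 CPM at 20 weeks and 422 to 968 CPM at 7 days. The part of these sums in the marker values was not tested.

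With fenretinide, 20 weeks against 7 days gave 0 of 10 markers called by edgeR, where 0.849% of 12949 genes were higher and 0.332% lower. DESeq2 called 0 and limma-voom 1 (Ngfr). At an unadjusted p under 0.05, 1 marker was higher, against 6.03% of all genes, and 0 were lower, against 3.63%. The median was 0.15, against 0.01 over all genes, with 9 of the 10 above 0. That direction depended on FEN-HFD mouse 29. Without it Reln (-0.0095), Ecm1 (-0.094), Colec11 (-0.049) and Pdgfra (-0.014) were below 0, as was Hand2 (-0.11).

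Ngfr was the marker with an unadjusted p under 0.05. It had 6.51, 5.95, 5.27 and 10.5 CPM in FEN-HFD mice 21, 22, 24 and 29 at 20 weeks, against 5.63, 3.93, 3.38 and 3.40 CPM in FEN-HFD mice 61, 62, 65 and 66 at 7 days. Mouse 24 lay below mouse 61, and the other 20-week livers were above each 7-day liver. It gave a log2 fold change of 0.75 (SE 0.24, 95% interval 0.21 to 1.29), with an adjusted p of 0.269, against 0.00864 by limma-voom, which weights libraries by quality. Without mouse 29 it was 0.52 (adjusted p = 0.195). Of 20 BMP signalling genes 1 fell by edgeR, Hamp, the iron hormone hepcidin made by hepatocytes, with 48.7 ± 5.02 CPM at 20 weeks and 141 ± 12.5 CPM at 7 days (-1.55, adjusted p = 0.000176). DESeq2 called 2 of this list lower and limma-voom 4. Groups of 0 markers were free of overlap in this comparison, where 4.09% of all genes were higher and 2.46% lower without overlap.

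Whether fenretinide acted differently on the markers at 20 weeks and at 7 days was tested in a fit of all 16 libraries. By edgeR 0 of 10 markers were called, where 0.00747% of 13387 genes were higher and 0.0224% lower, and DESeq2 and limma-voom called 0. At an unadjusted p under 0.05, 1 marker was higher and 0 lower, against 3.95% and 4.73% of all genes. The 1 marker was Ecm1, for which fenretinide gave a log2 fold change of 0.31 at 20 weeks and -0.17 at 7 days. The difference was 0.48 (SE 0.22, 95% interval 0.02 to 0.94), with an adjusted p of 0.557, and 0.29 without mouse 29. Lhx2 gave 0.17 at 20 weeks and -0.30 at 7 days, a difference of 0.47 (SE 0.32, adjusted p = 0.703). The 95% intervals of Ngfr and Lhx2 reached 2.50-fold and 2.20-fold, and those of the other 8 stayed within 2-fold.

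The balance within the marker set was described by the share of Reln in the summed counts of the 10 markers, a value that does not depend on how libraries are scaled. It was chosen after the values had been seen, and no test was made. Shares of other genes were not computed, so that how often such a share separates these groups is not known. Reln made up 55.4%, 54.7%, 52.4% and 51.6% in FEN-HFD mice 21, 22, 24 and 29 at 20 weeks, against 62.2%, 60.6%, 60.4% and 62.7% in HFD mice 25, 28, 33 and 45. The 2 groups did not overlap, and leaving out any 1 mouse left a difference of -8.57 to -7.30 percentage points around -7.96. At 7 days it was 57.3%, 51.5%, 53.9% and 55.0% in FEN-HFD mice 61, 62, 65 and 66, against 56.2%, 53.6%, 58.7% and 58.4% in HFD mice 142, 143, 144 and 146. These groups overlapped, at a difference of -2.34 percentage points. On the HFD alone, the 20-week livers lay above the 7-day livers with no overlap, by 4.74 percentage points, and on FEN-HFD the difference was -0.88.

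**Figure D4:**
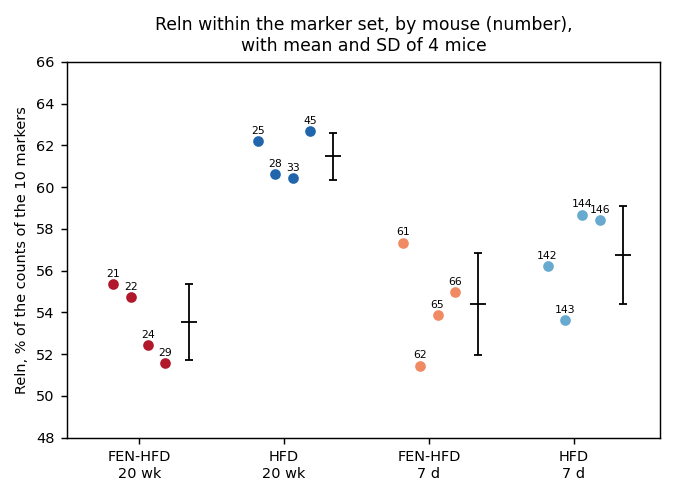
Reln counts as a percentage of the summed counts of the 10 markers (vertical axis from 48% to 66%, not from 0), 1 point per mouse with its number, with mean and SD of 4 mice. The HFD livers at 20 weeks (60.4% to 62.7%) lie above the 12 other livers, which run from 51.5% to 58.7%. This share was chosen after the values had been seen, and no test was made.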

How the data were processed

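Liver RNA of 16 mice, with conditions and mouse numbers from the sample labels, was read from raw counts per gene. As deposited by the authors, the counts came from reads aligned with STAR 2.0 to mm10, per the labels, with no normalization. The labels also name DESeq2 1.6. The sources used here do not give the counting program, annotation or strand setting, and they differ on whether the library kit was stranded. No column of the authors' own comparisons was used.

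Groups were compared in edgeR 4.0.16 under R 4.3.3 (filterByExpr, TMM, glmQLFit and glmQLFTest with robust=TRUE) on the 2 groups of each comparison, and on all 16 libraries for the difference between effects. Benjamini-Hochberg adjustment ran over all genes tested, with calls made at an adjusted p under 0.05. Standard errors and 95% intervals came from the same fits, in which the depth of 19218230 to 32546829 counts per library enters after TMM scaling. Computed over the 16 libraries, the TMM factor was 0.490 for FEN-HFD mouse 29, against 0.984 to 1.11 for the others. The scaled depth of mouse 29 therefore lay below that range. Scripts were tested on simulated data. Also tried were limma-voom with quality weights (limma 3.58.1), DESeq2 1.42.0, RLE factors, no filter, at least 10 counts in every library, removal of Rn45s and Lars2, all 16 libraries in 1 fit, and each mouse left out. Positions, exon lengths and overlaps came from GENCODE M21 (GRCm38).

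All 10 markers are described. The further genes named are those called in fixed lists, or the partners of a marker with the smallest p. The markers and lists were chosen with earlier results of these data known. The labels number each mouse, and p-values measure the spread between mice. Lean livers were not analysed here, and some genes of the lists are not reported here.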

Additional observations from a re-analysis of the deposited data

Results flagged for a closer look

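Within each group of 4 mice, the gap from the highest or lowest liver to its neighbour was compared with the group's range for the 10 markers and the Reln share, 44 groups of values in all, of which chance alone would give about 1 in 20. In 5 of them the gap passed Dixon's critical value at 95%. Ecm1 reached 54.3 CPM in FEN-HFD mouse 29 at 20 weeks, far above the other 3 livers. Ecm1 also reached 52.5 CPM in HFD mouse 142 at 7 days. Tcf21 reached 3.64 CPM in HFD mouse 144 at 7 days. Bmp5 reached 14.1 CPM in FEN-HFD mouse 21 at 20 weeks. Pdgfra stood low, at 12.8 CPM, in HFD mouse 33 at 20 weeks. The library of mouse 29, with 53.1% of its counts on Rn45s, is among these, and the part of its quality in the Ecm1 value was not tested.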

How the results depend on the processing

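Of 820 values of the 10 markers under the alternatives, 2 passed the test, both named above (Pdgfra without HFD mouse 33, and Ngfr between 20 weeks and 7 days on FEN-HFD by limma-voom), which made the count of markers called higher 1 in place of 0 there. No paired analysis was possible because the groups compared share no mouse numbers. Depth limited Lhx2 most, with 25 to 73 counts per liver.

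Over all genes at 20 weeks, edgeR called 100 higher and 142 lower with fenretinide, DESeq2 424 and 587, limma-voom 484 and 644, and all 16 libraries in 1 fit 254 and 407. With 1 mouse left out these ran from 16 to 203 and from 20 to 221. At 7 days edgeR called 13 and 0, DESeq2 61 and 34, limma-voom 23 and 6. RLE factors gave 1 lower, and no filter and all 16 libraries in 1 fit 2 each. With 1 mouse left out there were 7 to 14 higher and 0 to 4 lower. For HFD at 20 weeks over 7 days edgeR called 634 and 362, DESeq2 1065 and 699, with 340 to 598 and 128 to 380 when 1 mouse was left out. On FEN-HFD edgeR called 110 and 43, DESeq2 256 and 148, limma-voom 505 and 387, with 48 to 269 and 9 to 217 when 1 mouse was left out. For the difference between effects edgeR called 1 and 3, DESeq2 50 and 67, limma-voom 38 and 52, and 2 were higher without Rn45s and Lars2, with 0 to 5 and 0 to 9 when 1 mouse was left out. The cause was not tested.

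For other stellate cell genes with fenretinide at 20 weeks, DESeq2 called 3 higher and 1 lower, limma-voom 2 in each direction and edgeR with no filter 1 higher, and 0 to 2 higher and 0 to 1 lower with 1 mouse left out. At 7 days DESeq2 called 1 lower. For HFD at 20 weeks over 7 days, DESeq2 called 2 higher and 1 lower, limma-voom 1 lower, all 16 libraries in 1 fit 1 in each direction, and 0 to 3 were higher with 1 mouse left out. On FEN-HFD, DESeq2 called 1 in each direction and limma-voom 1 higher and 2 lower, with 0 to 1 higher when 1 mouse was left out. Of activated stellate cell genes, DESeq2 called 7 lower with fenretinide at 20 weeks, limma-voom 11 and all 16 libraries in 1 fit 5, with 0 to 3 when 1 mouse was left out. For HFD at 20 weeks over 7 days DESeq2 called 9 higher, limma-voom 3 and no filter 3, with 1 to 8 when 1 mouse was left out. On FEN-HFD limma-voom called 1 lower, with 0 to 1 when 1 mouse was left out, and for the difference between effects limma-voom called 2 lower.

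Uncalled fold changes near 0 changed sign in some fits. The log2 ranges that follow are with 1 mouse left out. With fenretinide at 20 weeks, Hand2 ran from -0.10 to 0.038, Tcf21 from -0.10 to 0.13, Bmp5 from -0.14 to 0.016 and Pdgfra from -0.23 to 0.11. With fenretinide at 7 days, Colec11 ran from -0.060 to 0.18, Rgs5 from -0.071 to 0.17 and Hand2 from -0.13 to 0.11. Between 20 weeks and 7 days on the HFD, Colec11 ran from -0.11 to 0.12, Rgs5 from -0.20 to 0.061 and Hand2 from -0.16 to 0.0071. Between 20 weeks and 7 days on FEN-HFD, Reln ran from -0.0095 to 0.17, Ecm1 from -0.094 to 0.17, Colec11 from -0.049 to 0.17, Hand2 from -0.20 to 0.037 and Pdgfra from -0.014 to 0.34. For the difference between effects, Colec11 ran from -0.035 to 0.20, Hand2 from -0.12 to 0.11, Tcf21 from -0.17 to 0.058 and Bmp5 from -0.038 to 0.12. The Reln share difference on FEN-HFD ran from -1.87 to 0.0949 percentage points. Rgs5 with fenretinide at 7 days was -0.00018 with DESeq2 and -0.024 with limma-voom and -0.00018 with RLE factors and -0.0019 with all 16 libraries in 1 fit. Hand2 with fenretinide at 7 days was 0.089 with limma-voom. Colec11 between 20 weeks and 7 days on FEN-HFD was -0.041 with limma-voom. Colec11 for the difference between effects was -0.0075 with limma-voom. Hand2 for the difference between effects was -0.00051 with DESeq2 and -0.13 with limma-voom and -0.0014 with at least 10 counts in every library. Tcf21 for the difference between effects was 0.054 with limma-voom.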
